A study of Mus musculus with 47 samples.

Results

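Genes that nearly all neurons use to build axons, to splice neuronal transcripts and to release transmitter were followed through the differentiation of mouse embryonic stem cells (ES cells) into ventral neural progenitors, with and without the transcription factor Foxa2 or Nkx2.2. The 44 genes were chosen by name, though with earlier results of these data known, and 42 of them had a row among the 38347 genes measured. Tubb3 and Slc18a3 are not analysed here. Levels are in FPKM, fragments scaled to transcript length and to the mapped fragments of the library, so that levels of different genes may be set side by side.

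The neuronal cytoskeleton rests on microtubules, which Map2 binds in dendrites and cell bodies, Mapt (tau) in axons and Dcx in young migrating neurons, and on neurofilaments made of Nefl, Nefm, Nefh and Ina. The Elav family (Elavl2, Elavl3 and Elavl4) and Rbfox3 (NeuN) bind neuronal RNA, and Srrm4 drives the inclusion of neuronal microexons. Synaptotagmins such as Syt1 sense calcium at the vesicle, the SNARE proteins Vamp2, Snap25 and Stx1a fuse it with the membrane, and granins such as Chgb and Scg2 fill dense-core vesicles. Outside neurons, many genes of these families are held down by the repressor REST, and many of them come on as a progenitor leaves the cell cycle.

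The Foxa2-/- cells carried the line label C57BL/6 and the wild-type (WT) cells the label E14.5, so line and genotype cannot be told apart. Both were grown in N2B27 medium as monolayers, were given retinoic acid for the first 3.5 days and received SAG1.3, an activator of Sonic hedgehog signalling, throughout. There were 3 Foxa2-/- and 2 WT libraries each of undifferentiated, untreated cells and of days 1 and 2; undifferentiated Foxa2-/- replicate 3 bears a progenitor source name but was grouped by its stage label. For days 3.5, 4.5 and 5.5 there were 3 libraries of each genotype, and for days 6.5 and 7.5 there were 2 Foxa2-/- and 3 WT libraries. A further arm held 1 Nkx2.2-/- library (label C57BL/6) and 1 WT library (label E14.5) at each of days 3.5 and 5.5, with retinoic acid and SAG1.3 for the first 3.5 days only. From day 3.5 on, RNA came from cells sorted for prominin, a protein of the apical membrane of neural progenitors, so that the levels are those of a sorted population and not of the whole culture. In such bulk samples, fewer neurons and less RNA per neuron cannot be told apart. The labels do not say that replicates came from separate cultures, so p-values measure the spread between these libraries, which may be technical.

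Foxa2 lay between 0 and 0.266 FPKM in the Foxa2-/- libraries of days 3.5 to 7.5, against 37.7 to 100 FPKM in the WT libraries, and Nkx2-2 lay at 1.34 and 3.38 FPKM in the Nkx2.2-/- libraries, against 19.6 and 28.7 FPKM in theirs. Markers of neural progenitors summed to 1446 to 4142 FPKM in Foxa2-/- and 1624 to 4128 FPKM in WT libraries of days 3.5 to 7.5. Estimated depth was 33500000 to 38600000 fragments up to day 2, 13400000 to 30600000 from day 3.5 and 9700000 to 11900000 in the Nkx2.2 arm. On some days the libraries numbered 1 stood apart for the 37 neuronal genes tested from day 3.5 on. Among Foxa2-/- libraries number 1 was the lowest of its group for 29, 34, 32 and 37 genes at days 4.5, 5.5, 6.5 and 7.5, and among WT libraries for 28, 37 and 37 genes at days 4.5, 5.5 and 6.5. Of all genes, 29.8%, 36.4%, 52.3% and 45.8% were lowest in it on those Foxa2-/- days, the last 2 with 2 libraries a group. On those WT days the shares were 34.1%, 39.1% and 33.0%. At WT day 7.5 number 1 was the lowest for 15 genes (32.1% of all genes) and replicate 3 for 20 (33.4%). At day 3.5 number 1 was the highest for 21 genes in Foxa2-/- (38.3% of all genes) and 27 in WT cells (31.0%). Results are therefore also given without the libraries numbered 1 of days 4.5 to 7.5, where more than 1 library a group remains. This alternative was chosen after the values of these members were seen. At day 2, replicates 1 and 3 of the Foxa2-/- cells differed from replicate 2 in how values varied with transcript length, with slopes of -0.206 and -0.0818 against 0.042.

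Promoters of members were searched for 4 short motifs because these genes tend to move together. Those printed, of Chgb, Scg2, Syn1 and Elavl3, were picked from the members that carry a motif. RefSeq sequence of GRCm38.p6 covered 30 members, and the window was the 250 bases before the annotated start, searched on both strands. The cAMP-response motif TGACGTCA stood in 10% of member promoters (Chgb, Scg2 and Syn1) and in 1.62% of all 27025 promoters. The first arm of the REST site, TTCAGCACC, stood in Syn1 only (3.33%, against 0.285% of all promoters), the E-box CAGCTG in 7 members (23.3%, against 12.8%) and the FOXA core TGTTTAC in Celf3 (3.33%, against 3.09%). The Chgb motif lies 72 bases before the start (chr2:132781559-132781588, plus strand), the Scg2 motif 68 bases before it (chr1:79440076-79440105, minus strand), and both are shown within 30 bases because they lie in a GENCODE exon. In Syn1 (chrX:20921005-20921168, minus strand) TTCAGCACC begins 232 bases and TGACGTCA 159 bases before the start. In Elavl3 (chr9:22052024-22052273, minus strand) CAGCTG begins 43 bases before the start. Capitals mark the motifs, and a match of letters is not a measured site.
Chgb: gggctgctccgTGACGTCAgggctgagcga
Scg2: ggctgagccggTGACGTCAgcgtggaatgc
Syn1: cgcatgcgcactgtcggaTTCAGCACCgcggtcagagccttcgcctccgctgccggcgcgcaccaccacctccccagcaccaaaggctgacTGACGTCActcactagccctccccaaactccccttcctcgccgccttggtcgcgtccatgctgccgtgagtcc
Elavl3: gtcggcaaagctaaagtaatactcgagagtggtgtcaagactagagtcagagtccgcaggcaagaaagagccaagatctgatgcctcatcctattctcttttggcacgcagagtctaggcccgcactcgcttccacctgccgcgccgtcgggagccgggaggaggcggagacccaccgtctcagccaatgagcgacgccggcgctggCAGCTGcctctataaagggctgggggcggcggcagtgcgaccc

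Before sorting, in the first 2 days, 25 of the 42 members reached 1 FPKM in at least 2 libraries and were tested, and 4 of these at day 1 and 6 at day 2 were higher in Foxa2-/- cells. Differences are given on the log2(FPKM + 1) scale with their standard error and with p from limma adjusted over all genes of a table, and a gene is called when adjusted p is under 0.05. The added 1 understates the changes of genes at low FPKM. In undifferentiated cells 0 of 25 differed by limma, against 0.377% of all 16465 genes. An unadjusted p under 0.05 was found for 5, a measure not counted over all genes. At day 1, 4 were higher and 0 lower in Foxa2-/- cells, against 1.2% and 0.68% of all genes. At day 2, 6 were higher and 1 lower, against 1.6% and 3.72%.

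Gap43, a membrane phosphoprotein of growth cones (chr16:42248442-42340651, minus strand), had the largest called difference at day 1. It stood at 30.5, 36.7 and 31.7 FPKM in Foxa2-/- cells, against 7.36 and 8.05 FPKM in WT cells. The groups did not overlap, the difference was 1.96 ± 0.21 (SE, adjusted p = 0.00112), and it was called in each of the 13 alternatives. At day 2 Gap43 stood at 18.2, 10.6 and 14.8 FPKM in Foxa2-/- cells, against 10.6 and 8.39 FPKM in WT cells, values that meet at 10.6. The day 1 difference was thus not called a day later.

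Stmn2, a microtubule-destabilising protein of growing axons (chr3:8509360-8561606, plus strand), was higher before differentiation than at days 1 and 2. Undifferentiated Foxa2-/- cells had 89.1, 85.4 and 88.8 FPKM, against 118.7 and 119.4 FPKM in WT cells. At day 1 the levels were 45.4, 47.4 and 41.9 FPKM in Foxa2-/- cells, against 28.6 and 27.3 FPKM in WT cells. At day 2 they were 17, 12.3 and 15.5 FPKM, against 8.66 and 6.77 FPKM. Stmn2 therefore fell in both genotypes, by 2.49 ± 0.13 (adjusted p = 4.11e-08) in Foxa2-/- and by 3.79 ± 0.15 (adjusted p = 2.35e-08) in WT cells between the undifferentiated state and day 2. The fall differed between genotypes by 1.30 ± 0.20 (adjusted p = 0.0114), and the groups did not overlap at any of the 3 times. The Foxa2-/- excess at day 1 was 0.66 ± 0.14 (adjusted p = 0.0382) and was called in 3 of 13 alternatives. At day 2 it was 0.87 ± 0.14 (adjusted p = 0.0049).

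The related Stmn3 stood at 4.08, 5.08 and 4.91 FPKM in Foxa2-/- cells of day 1, against 0.697 and 1.68 FPKM in WT cells, a difference of 1.41 ± 0.31 (adjusted p = 0.0418) called in 4 of 13 alternatives. Neurofilament genes split. Nefm, the medium subunit (chr14:68082590-68124846, minus strand), had 3.72, 3.63 and 4.15 FPKM in Foxa2-/- cells of day 2, against 1.43 and 1.33 FPKM in WT cells, and was higher by 1.02 ± 0.12 (adjusted p = 0.000549). Nefl, the light subunit, had 4.58, 4.56 and 4.87 FPKM, against 2.35 and 2.24 FPKM (0.78 ± 0.12, adjusted p = 0.00334). The 2 loci overlap on opposite strands in GENCODE, and whether their exons overlap was not examined. Only reads from a shared stretch of exon would have to be told apart by strand. Nefh, the heavy subunit, and Ina (internexin) were not called between genotypes and fell with time. Nefh had 1.8, 1.63 and 2.03 FPKM in Foxa2-/- cells of day 2, against 8.92, 7.27 and 7.76 FPKM before differentiation (-1.67 ± 0.14, adjusted p = 2.04e-06).

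Nsg1, an endosomal sorting protein of neurons (chr5:38137192-38159907, minus strand), rose in both genotypes between the undifferentiated state and day 2, by 2.76 ± 0.10 in Foxa2-/- (adjusted p = 2.92e-09) and by 2.35 ± 0.12 in WT cells (adjusted p = 1.27e-07). In Foxa2-/- cells it stood at 0.723, 0.577 and 0.693 FPKM before differentiation, at 4.59, 4.56 and 5.12 FPKM at day 1 and at 10, 10.4 and 10.4 FPKM at day 2. The WT levels were 0.520 and 0.714 FPKM before differentiation, 2.43 and 2.41 FPKM at day 1 and 6.91 and 7.59 FPKM at day 2. Foxa2-/- cells were higher by 0.75 ± 0.11 (adjusted p = 0.00564) at day 1 and by 0.45 ± 0.11 (adjusted p = 0.0397) at day 2, the second of these called in 6 of 14 alternatives. The granin-related Scg3 had 5.67, 5.79 and 6.84 FPKM in Foxa2-/- cells of day 2, against 2.76 and 1.91 FPKM in WT cells (1.10 ± 0.16, adjusted p = 0.00274). The RNA-binding protein gene Celf3 was higher as well, at 1.61, 1.08 and 1.18 FPKM against 0.389 and 0.529 FPKM (0.65 ± 0.12, adjusted p = 0.0106).

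Map2 (chr1:66175273-66442583, plus strand) was the member called lower at day 2. It had 1.61, 4.92 and 2.06 FPKM in Foxa2-/- cells, against 10.3 and 7.37 FPKM in WT cells (-1.43 ± 0.37, adjusted p = 0.047), and this was called in 2 of 14 alternatives. Its highest Foxa2-/- value came from replicate 2, whose slope with transcript length was 0.042, against 0.0602 and 0.0508 in the WT libraries of that day. Leaving replicate 2 out gave 12 calls at day 2, leaving out Foxa2-/- replicates 1 and 3 together gave 2, and leaving out WT replicate 1 or WT replicate 2 gave 4. At day 1 the 4 calls became 1 without WT replicate 1 and 2 whichever Foxa2-/- library was left out. Rest itself was lower in Foxa2-/- cells of day 2, at 6.69, 11.7 and 8.44 FPKM against 16.2 and 16 FPKM (-0.81 ± 0.18, adjusted p = 0.0231), and its part in these results was not tested.

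Between the undifferentiated state and day 2, 13 of 25 members rose and 6 fell in Foxa2-/- cells, against 31.4% and 23.2% of all genes. In WT cells 10 rose and 7 fell, against 19.1% and 14.8%. The change differed between genotypes for Stmn2 and for Nefm (0.94 ± 0.17, adjusted p = 0.0224), 2 of 25 members against 0.261% of all genes in that direction and 0.747% in the other. Nefm had 3.72, 3.63 and 4.15 FPKM at day 2 against 1.76, 1.66 and 1.78 FPKM before differentiation in Foxa2-/- cells, while WT cells had 1.43 and 1.33 FPKM at day 2 against 1.77 and 1.41 FPKM. The count was 9 without Foxa2-/- replicate 2 of day 2, and over single left-out libraries it lay between 0 and 9. Elavl4 had 3.01, 7.68 and 3.77 FPKM in Foxa2-/- cells of day 2 against 0.901, 0.927 and 1.05 FPKM before, and 6.44 and 4.57 FPKM in WT cells against 1.12 and 0.793 FPKM. It rose in both genotypes.

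**Figure D1:**
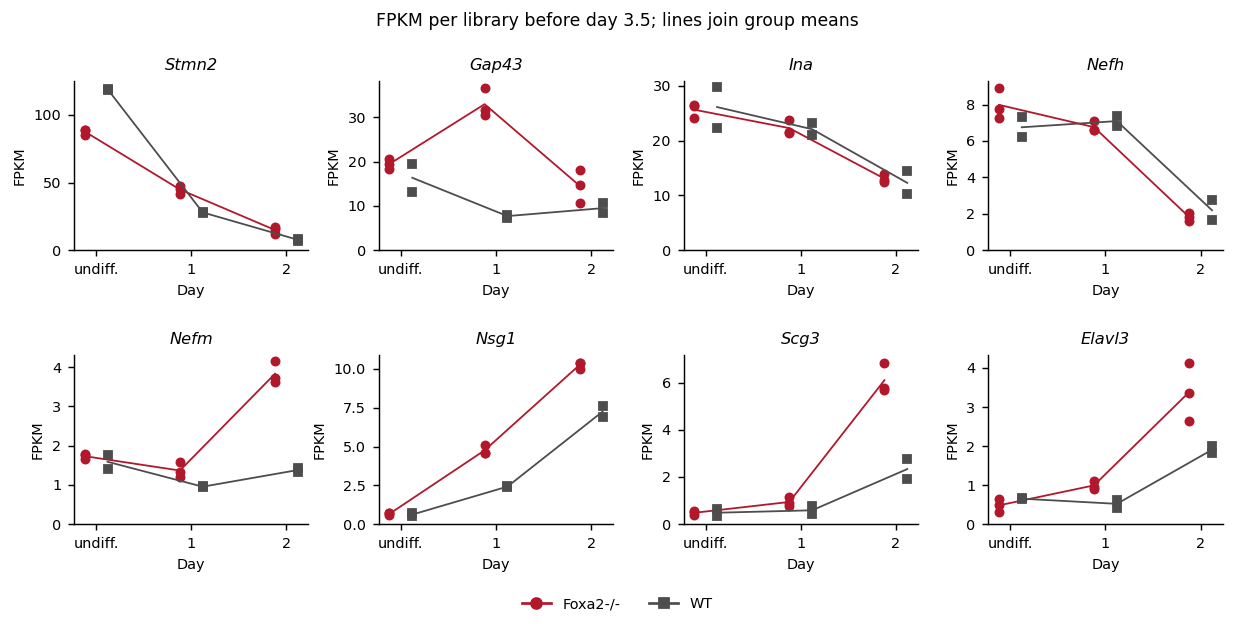
Levels of Stmn2, Gap43, Ina, Nefh, Nefm, Nsg1, Scg3 and Elavl3 in undifferentiated cells and at days 1 and 2 (FPKM, each panel with its own axis); points are libraries, Foxa2-/- left of WT, and lines join group means. At day 2 Stmn2, Ina and Nefh lie lower and Nsg1, Scg3 and Elavl3 higher than before differentiation, and Gap43 at day 1 lies at 30.5 to 36.7 FPKM in Foxa2-/- cells, above the 7.36 and 8.05 FPKM of WT cells.

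From day 3.5 on, in sorted cells, most members had their highest levels at day 7.5 in Foxa2-/- and at day 6.5 in WT cells. Of the 42 members 37 were tested; Gad1, Gad2, Slc17a6, Slc32a1 and Nefh stayed too low. In Foxa2-/- cells 27 of the 37 had their highest group mean of log2(FPKM + 1) at day 7.5, against 5855 of all 17124 genes. Of the 2 Foxa2-/- libraries of that day, replicate 2 lay above replicate 1 for all 37 members, against 45.8% of all genes. In WT cells 24 of the 37 had it at day 6.5, against 3533 of all genes, and Scn3a, Syt1 and Vamp2 had it at day 7.5. The median difference between Foxa2-/- and WT cells over the 37 members was -0.54 at day 3.5, -0.22 at day 4.5, -0.36 at day 5.5, -0.50 at day 6.5 and 0.60 at day 7.5. Over all genes that median lay at -0.01, 0.00, 0.00, 0.07 and 0.04.

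**Figure D2:**
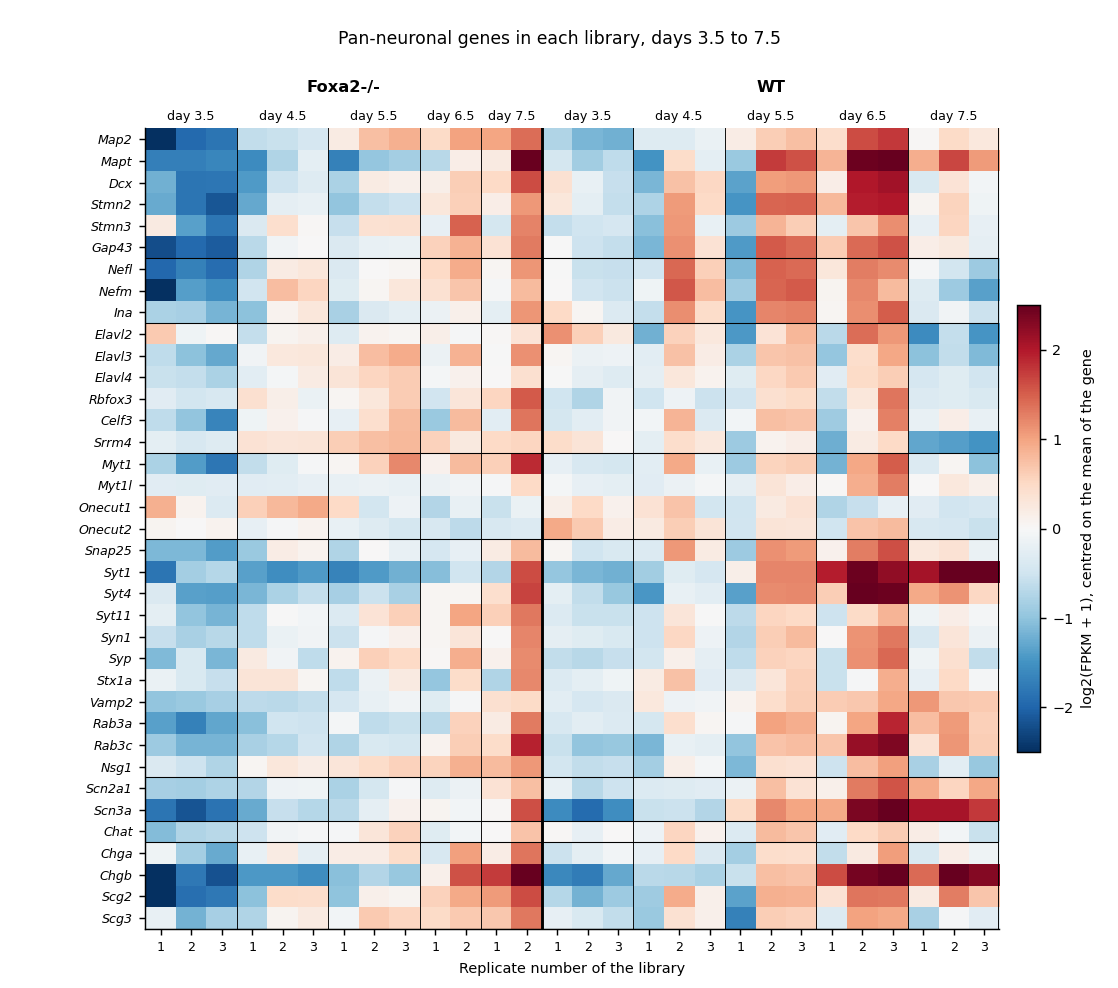
Levels of the 37 tested members (rows, ordered by role) in the 28 libraries of days 3.5 to 7.5 (columns, Foxa2-/- left, WT right), as log2(FPKM + 1) minus the mean of the gene. Most rows reach their highest level at day 7.5 in Foxa2-/- cells and at day 6.5 in WT cells. In Foxa2-/- day 7.5 and in WT days 5.5 and 6.5 the library numbered 1 lies lowest of its group in all 37 rows.

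At day 3.5, 35 of 37 differences were negative, and 2 members were called lower (2.70% of all genes) and 0 higher (0.677%). At day 4.5, 1 was lower (5.82%) and 0 higher (1.69%). At day 5.5, 3 were lower (9.73%) and 1 higher (4.53%). At day 6.5, 9 were lower (11.9%) and 0 higher (13%). At day 7.5, 5 were higher (13.6%) and 2 lower (12.1%), so that the share called higher was close to that of all genes. On that day 32 of 37 differences were positive. Signs of differences, here and below, were not counted over all genes. The 2 lower genes were the calcium sensor Syt1 and the sodium channel Scn3a.

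Single libraries moved these counts. The 2 calls of day 3.5 became 0 whichever WT library was left out, 0 without Foxa2-/- replicate 1 and 1 without Foxa2-/- replicate 2 or 3, and the call of day 4.5 was lost without WT replicate 1. The 4 of day 5.5 became 14 without WT replicate 1 and 2 without Foxa2-/- replicate 1 or 2. The 9 of day 6.5 became 4 without WT replicate 2 or 3 and 3 without Foxa2-/- replicate 1. The 7 of day 7.5 became 4 without WT replicate 1 or 3 and without either Foxa2-/- library. The median difference of that day was 0.09 without Foxa2-/- replicate 2 and 1.22 without Foxa2-/- replicate 1. The libraries numbered 1 were picked because most stood lowest for these members, so more member calls without them partly follow from that choice. Without those of days 4.5 to 7.5, 16 members were lower at day 3.5 (6.41% of all genes under the same omission). At day 4.5 there were 3 lower (5.75%) and at day 5.5 there were 18 (11.9%). No library of day 3.5 was left out, so its calls moved only with the spread shared by the fit. At days 6.5 and 7.5 this leaves 1 Foxa2-/- library a day. The counts of those days are listed only with the processing settings, and no result is drawn from them.

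**Figure D3:**
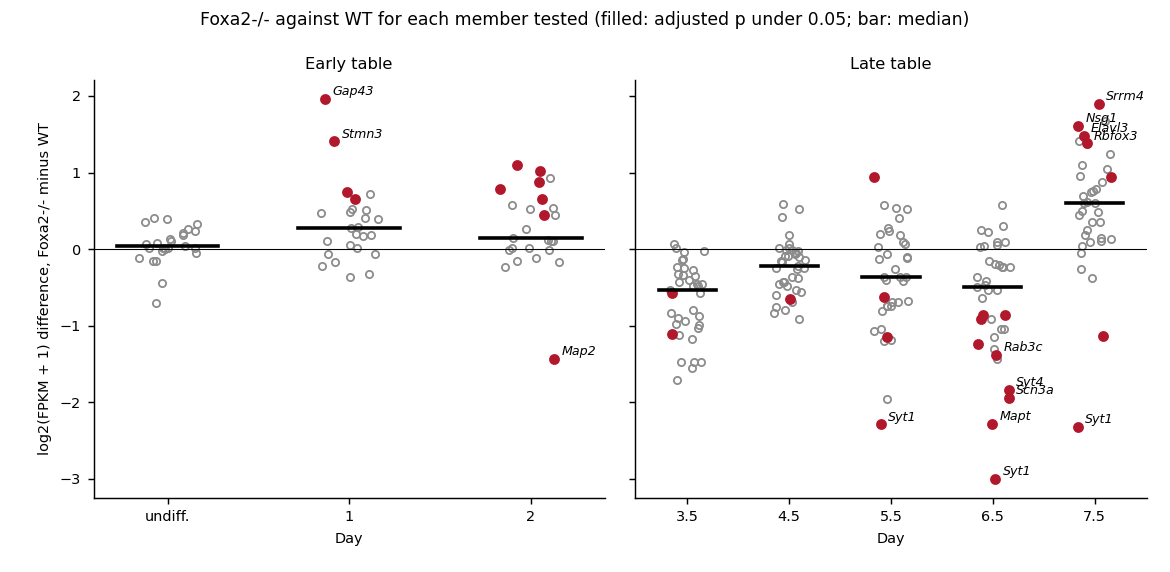
Difference between Foxa2-/- and WT cells (log2(FPKM + 1), Foxa2-/- minus WT) for each tested member at each time; filled points have adjusted p under 0.05 and the bar is the median over members. The median lies below 0 from day 3.5 to day 6.5 and at 0.60 at day 7.5.

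Other values differed between the genotypes as well, and not always on the days when the members did. Prom1, the sorted antigen, stood at 72.2 and 52.6 FPKM in Foxa2-/- cells of day 7.5, against 211.5, 226.3 and 261.8 FPKM in WT cells (-1.90 ± 0.16, adjusted p = 2.04e-08). The cell-cycle markers summed to 1232 and 760.1 FPKM in Foxa2-/- cells of day 6.5, against 576.7, 464.2 and 300.0 FPKM in WT cells, and to 831.4 and 385.0 against 294.8, 255.4 and 293.2 FPKM at day 7.5. The 6 motor neuron markers with a row summed to 58.4 and 41.7 FPKM in Foxa2-/- cells of day 7.5, against 23.9, 14.6 and 7.96 FPKM in WT cells. The 8 floor plate markers summed to 41.8 to 179.9 FPKM in all Foxa2-/- libraries from day 3.5, against 2367, 2597 and 2680 FPKM in WT cells of day 7.5. In WT day 5.5, where replicate 1 was lowest for every tested member, motor neuron markers stood at 25.7 FPKM in replicate 1 and at 66.5 and 64.7 FPKM in the others, and floor plate markers at 2393 FPKM against 1621 and 1623 FPKM. In Foxa2-/- day 5.5 replicate 1 was lowest for 34 members, yet motor neuron markers stood at 132.5 FPKM in it and at 110.5 and 120.5 FPKM in the others. Replicate 1 also had the highest motor neuron sum of its group at Foxa2-/- days 4.5, 6.5 and 7.5. At WT days 4.5 and 6.5 it had the lowest. The part of these cell types, of the sort and of the cell cycle in the results was not tested.

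Among the cytoskeletal genes, Map2 was lower in Foxa2-/- cells at day 3.5 and higher at day 7.5. In Foxa2-/- cells it stood at 8.41, 14.4 and 15.6 FPKM at day 3.5, at 37.6, 39.0 and 42.8 at day 4.5, at 66.9, 98.5 and 108.2 at day 5.5, at 81.4 and 117.2 at day 6.5 and at 116.4 and 154.2 at day 7.5. In WT cells it stood at 34.2, 25.8 and 24.7 FPKM at day 3.5, at 46.3, 46.1 and 51.2 at day 4.5, at 66.5, 89.8 and 97.8 at day 5.5, at 79.4, 181.6 and 199.1 at day 6.5 and at 59.4, 81.6 and 69.5 at day 7.5. Each Foxa2-/- library was below each WT library at days 3.5 and 4.5, the groups overlapped at days 5.5 and 6.5, and the order was turned round at day 7.5. The difference was -1.11 ± 0.28 at day 3.5 (adjusted p = 0.0293) and 0.94 ± 0.31 at day 7.5 (adjusted p = 0.0329). The change between days 3.5 and 7.5 was larger in Foxa2-/- than in WT cells by 2.04 ± 0.42 (adjusted p = 0.00419), and this was called in each of 20 alternatives.

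Mapt, or tau (chr11:104231390-104332090, plus strand), had 2.07 and 4.57 FPKM in Foxa2-/- cells of day 6.5, against 7.88, 25.9 and 33.0 FPKM in WT cells. The difference was -2.28 ± 0.74 (adjusted p = 0.0274; 10 of 14 alternatives). At day 7.5 it had 4.77 and 26.2 FPKM, against 8.21, 14.8 and 9.37 FPKM, and the 2 Foxa2-/- libraries lay on either side of all WT libraries. Gap43 had 81.5 and 157.0 FPKM in Foxa2-/- cells of day 7.5, against 12.8, 15.6 and 14.2 FPKM at day 3.5, and rose by 2.91 ± 0.64 (adjusted p = 0.00198). WT cells had 70.7, 74.8 and 53.6 FPKM at day 7.5, against 62.4, 43.8 and 41.7 FPKM at day 3.5, with 98.8, 171.1 and 192.6 FPKM in between at day 6.5. Its WT levels at day 7.5 were close to those of day 3.5 (0.43 ± 0.57, adjusted p = 0.572). Stmn2, by then low, rose again in Foxa2-/- cells, to 55.2 and 105.4 FPKM at day 7.5, against 20.1, 13.2 and 10.4 FPKM at day 3.5 (2.36 ± 0.66, adjusted p = 0.0106).

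The neurofilament genes Nefm and Nefl rose in Foxa2-/- cells too. Nefm stood at 52.0 and 92.9 FPKM in Foxa2-/- cells of day 7.5, against 8.59, 20.0 and 17.5 FPKM at day 3.5. WT cells were at 42.7, 27.8 and 20.2 FPKM at day 7.5, against 53.5, 38.1 and 36.5 FPKM at day 3.5. The lower Foxa2-/- value at day 7.5 was above the highest WT value, but the difference of 1.24 did not pass the test (adjusted p = 0.14). The change in time did differ between genotypes, by 2.71 ± 0.80 (adjusted p = 0.0427), in 10 of 20 alternatives. Nefl rose by 2.44 ± 0.60 in Foxa2-/- cells (adjusted p = 0.00465), and Ina, at 1.35 ± 0.65 (adjusted p = 0.119), was not called.

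**Figure D4:**
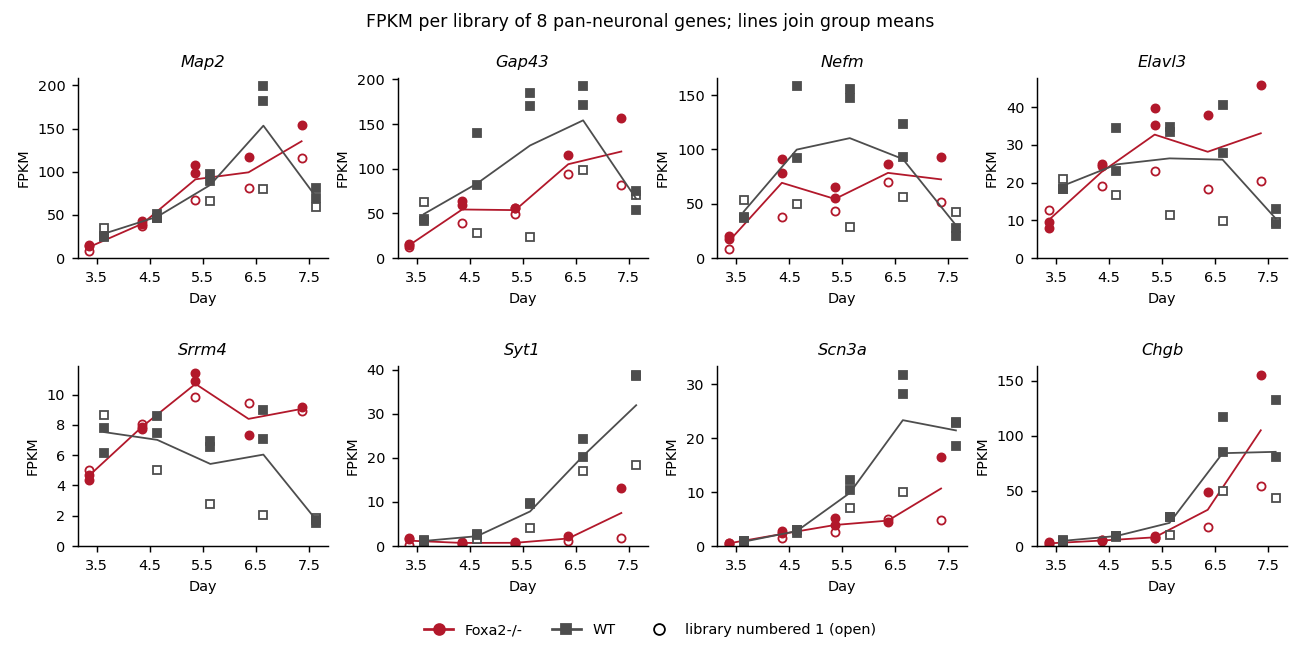
Levels of Map2, Gap43, Nefm, Elavl3, Srrm4, Syt1, Scn3a and Chgb from day 3.5 to day 7.5 (FPKM, each panel with its own axis); points are libraries, Foxa2-/- left of WT, open symbols are libraries numbered 1 and lines join group means. Srrm4 ends at 8.93 and 9.19 FPKM in Foxa2-/- cells and at 1.87, 1.73 and 1.5 FPKM in WT cells, while Syt1 ends at 1.78 and 13.2 FPKM in Foxa2-/- cells and at 18.4, 38.9 and 38.5 FPKM in WT cells.

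Of the 6 RNA-binding genes 3 were called higher in Foxa2-/- cells at day 7.5, all 6 differences were positive and their median was 1.39. Srrm4 (chr5:116439275-116591817, minus strand) had the largest of these differences. It stood at 4.99, 4.34 and 4.67 FPKM in Foxa2-/- cells of day 3.5, against 8.67, 7.77 and 6.14 FPKM in WT cells, and at 8.93 and 9.19 FPKM at day 7.5, against 1.87, 1.73 and 1.5 FPKM. The groups overlapped at neither time, and their order was opposite. It was higher by 0.94 ± 0.31 at day 5.5 (adjusted p = 0.0487; 8 of 15 alternatives) and by 1.90 ± 0.35 at day 7.5 (adjusted p = 0.000381; 14 of 14). In WT cells Srrm4 fell by 1.65 ± 0.31 between days 3.5 and 7.5 (adjusted p = 0.000201). Its Foxa2-/- difference over the same days, 0.83 ± 0.35, was not called (adjusted p = 0.075). The change differed between genotypes by 2.48 ± 0.47 (adjusted p = 0.00204), in each of 20 alternatives.

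Elavl3 (HuC, chr9:22015005-22052023, minus strand) had 20.3 and 45.8 FPKM in Foxa2-/- cells of day 7.5, against 9.46, 13 and 8.95 FPKM in WT cells, a difference of 1.48 ± 0.49 (adjusted p = 0.0318; 10 of 14 alternatives). At day 3.5 it had 12.7, 9.51 and 7.83 FPKM, against 20.9, 18.3 and 18.4 FPKM, so that both times showed no overlap and opposite orders. The change differed by 2.37 ± 0.66 (adjusted p = 0.0314; 12 of 20). Rbfox3, a splicing factor used as a marker of mature neurons, had 2.44 and 5.82 FPKM in Foxa2-/- cells of day 7.5, against 0.856, 0.917 and 0.801 FPKM in WT cells (1.38 ± 0.41, adjusted p = 0.0163). Elavl2 fell in WT cells, to 4.02, 8.88 and 4.39 FPKM at day 7.5, against 8.36, 38.6 and 30.7 FPKM at day 6.5 (-1.82 ± 0.54, adjusted p = 0.0351). Its 14.2 and 18.1 FPKM in Foxa2-/- cells of day 7.5 lay above all 3 WT libraries without passing the test (1.41 ± 0.61, adjusted p = 0.0971).

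The genes of vesicle release differed in both directions. Syt1, which triggers fast release (chr10:108497650-109010982, minus strand), rose in both genotypes and reached the higher level in WT cells. In Foxa2-/- cells it stood at 0.291, 1.56 and 1.79 FPKM at day 3.5, at 0.797, 0.563 and 0.717 at day 4.5, at 0.451, 0.723 and 1.00 at day 5.5, at 1.18 and 2.23 at day 6.5 and at 1.78 and 13.2 at day 7.5. In WT cells it stood at 1.36, 1.09 and 0.996 FPKM at day 3.5, at 1.51, 2.72 and 2.45 at day 4.5, at 4.11, 9.64 and 9.76 at day 5.5, at 16.9, 24.2 and 20.2 at day 6.5 and at 18.4, 38.9 and 38.5 at day 7.5. The groups overlapped at day 3.5 and at no later day. The difference was -2.29 ± 0.43 at day 5.5 (adjusted p = 0.000716) and -3.00 ± 0.48 at day 6.5 (adjusted p = 0.000112), and both were called in every alternative run. At day 7.5 the difference was -2.32 ± 0.48 (adjusted p = 0.00127). It was lost when Foxa2-/- replicate 1 was left out, which leaves the library at 13.2 FPKM alone, and when only the 2 groups were fitted. Between days 3.5 and 7.5 it rose by 1.58 ± 0.48 in Foxa2-/- cells (adjusted p = 0.017) and by 3.87 ± 0.43 in WT cells (adjusted p = 5.73e-07). The difference between these changes was -2.28 ± 0.65 (adjusted p = 0.0346), a call lost in 11 of 20 alternatives. The 6 serotonergic neuron markers summed to 2.60, 4.81 and 3.97 FPKM in Foxa2-/- cells of day 5.5, against 33.0, 27.0 and 22.9 FPKM in WT cells, to 4.75 and 23.8 FPKM at day 6.5, against 21.7, 21.6 and 31.3 FPKM, and to 22.9 and 68.5 FPKM at day 7.5, against 44.6, 77.7 and 56.0 FPKM. The sums of the genotypes did not overlap at day 5.5 and overlapped at days 6.5 and 7.5, and their part in the Syt1 difference was not tested.

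Vamp2, the vesicle SNARE (chr11:69088490-69092384, plus strand), was called lower in Foxa2-/- cells on 4 of 5 days. It had 13.1, 13.6 and 14.7 FPKM in Foxa2-/- cells of day 3.5, against 22.4, 19.9 and 20.6 FPKM in WT cells, and 21.5 and 26.4 FPKM at day 6.5, against 42.2, 43.6 and 53.3 FPKM. At day 7.5 it had 35.6 and 37.8 FPKM, against 58.1, 43.8 and 42.9 FPKM. All Foxa2-/- libraries lay below all WT libraries of their day from day 3.5 to day 7.5. The call of day 3.5 was lost whichever WT library was left out, and also without Foxa2-/- replicate 1. That of day 4.5 was lost without WT replicate 1. The differences were -0.57 ± 0.14 at day 3.5 (adjusted p = 0.0289), -0.65 ± 0.14 at day 4.5 (adjusted p = 0.00578), -0.62 ± 0.14 at day 5.5 (adjusted p = 0.00491) and -0.92 ± 0.16 at day 6.5 (adjusted p = 0.000263), while the -0.38 ± 0.16 of day 7.5 was not called (adjusted p = 0.095). Vamp2 nevertheless rose with time in both genotypes, by 1.35 ± 0.16 in Foxa2-/- cells (adjusted p = 4.69e-06) and by 1.15 ± 0.14 in WT cells (adjusted p = 2.08e-06) between days 3.5 and 7.5.

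Nsg1 was higher in Foxa2-/- cells at day 7.5. It had 46.0 and 56.5 FPKM in Foxa2-/- cells of day 7.5, against 14.5, 21.6 and 13 FPKM in WT cells, and was higher by 1.61 ± 0.41 (adjusted p = 0.00558), in each of 14 alternatives. At day 6.5, 39.1 and 49.2 FPKM stood against 17.9, 45.1 and 54.4 FPKM, and the groups overlapped. The calcium-independent synaptotagmin Syt4 and the vesicle GTPase Rab3c were called lower at day 6.5 and on no other day. Syt4 had 3.15 and 3.13 FPKM in Foxa2-/- cells, against 5.09, 23.4 and 20.8 FPKM in WT cells (-1.84 ± 0.64, adjusted p = 0.0403; 7 of 14 alternatives), and Rab3c had 2.2 and 3.59 FPKM, against 3.86, 12.5 and 14.1 FPKM (-1.38 ± 0.50, adjusted p = 0.0484; 6 of 14).

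Of the neuronal sodium channels, Scn3a, the alpha subunit of immature neurons (chr2:65457118-65567627, minus strand), rose in both genotypes and reached the higher level in WT cells. It had 4.82 and 16.5 FPKM in Foxa2-/- cells of day 7.5, against 0.617, 0.275 and 0.587 FPKM at day 3.5 (2.77 ± 0.40, adjusted p = 4.64e-05). WT cells had 22.8, 23.0 and 18.5 FPKM at day 7.5, against 0.925, 0.516 and 0.953 FPKM at day 3.5 (3.64 ± 0.36, adjusted p = 1.41e-07). Foxa2-/- cells had 4.97 and 4.45 FPKM at day 6.5, against 10, 28.2 and 31.8 FPKM in WT cells. The difference was -1.15 ± 0.36 at day 5.5 (adjusted p = 0.0357), -1.94 ± 0.40 at day 6.5 (adjusted p = 0.00135) and -1.14 ± 0.40 at day 7.5 (adjusted p = 0.0412), and the last of these was called in 6 of 14 alternatives and lost without Foxa2-/- replicate 1 of that day. Its neighbour Scn2a1 (chr2:65620771-65767447, plus strand) had 0.640 and 0.853 FPKM in Foxa2-/- cells of day 6.5, against 1.25, 4.05 and 5.13 FPKM (-1.24 ± 0.33, adjusted p = 0.00884).

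All 4 granins rose in Foxa2-/- cells and 2 of them in WT cells. Chgb (chromogranin B, chr2:132781278-132795079, plus strand) stood at 54.5 and 155.8 FPKM in Foxa2-/- cells of day 7.5, against 0.693, 3.80 and 2.64 FPKM at day 3.5, a rise of 4.91 ± 0.53 (adjusted p = 1.29e-06). WT cells were at 43.3, 132.8 and 80.6 FPKM at day 7.5, against 4.4, 3.96 and 5.84 FPKM at day 3.5, a rise of 3.79 ± 0.47 (adjusted p = 1.97e-06). At day 6.5 the 17 and 48.8 FPKM of Foxa2-/- cells lay below the 50.3, 85.8 and 116.9 FPKM of WT cells without passing the test (-1.43 ± 0.53, adjusted p = 0.0518). Scg2 (secretogranin 2) had 18.6 and 28.1 FPKM in Foxa2-/- cells of day 7.5, against 0.528, 1.55 and 1.72 FPKM at day 3.5 (3.44 ± 0.61, adjusted p = 0.00037). Chga and Scg3 rose in Foxa2-/- cells as well, by 1.5 ± 0.49 (adjusted p = 0.0229) and 1.73 ± 0.56 (adjusted p = 0.023), and were not called in WT cells over the same days. Granins are also made by endocrine cells, and the hormone genes Ins1, Ins2 and Gcg were listed at 0 in every Foxa2-/- and WT library of days 3.5 to 7.5 in the Foxa2 arm. The 8 endocrine and endoderm markers, with those hormone genes among them, had higher sums at day 7.5 than at day 3.5 in both genotypes. They summed to 17.2 and 41.9 FPKM in Foxa2-/- cells of day 7.5, against 0.623, 6.55 and 3.37 FPKM at day 3.5. WT cells had 9.15, 46.2 and 45.0 FPKM at day 7.5, against 1.13, 1.63 and 1.16 FPKM at day 3.5. The part of these markers in the result was not tested.

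Among the transcription factors, the zinc-finger genes Myt1 and Myt1l and the cut-homeobox genes Onecut1 and Onecut2 differed in their course. Myt1 had 20.4 and 50.8 FPKM in Foxa2-/- cells of day 7.5, against 10.2, 13.7 and 5.93 FPKM in WT cells (1.67 ± 0.62, adjusted p = 0.0539), and rose within Foxa2-/- cells by 2.56 ± 0.62 between days 3.5 and 7.5 (adjusted p = 0.0042). Onecut2 fell in WT cells over those days by 1.06 ± 0.27 (adjusted p = 0.00261). At day 6.5 it had 0.676 and 0.407 FPKM in Foxa2-/- cells, against 0.556, 2.62 and 2.80 FPKM (-0.86 ± 0.30, adjusted p = 0.0403), with the WT library numbered 1 inside the Foxa2-/- range. Myt1l, at 0.125 and 0.183 FPKM against 0.281, 1.34 and 2.05 FPKM on that day, was lower too (-0.86 ± 0.24, adjusted p = 0.0135). The genes of transmitter identity stayed low in the Foxa2 arm, where from day 3.5 to 7.5 the highest values were 0.698 FPKM for Gad1, 0.328 for Gad2, 0.402 for Slc17a6 and 0.116 for Slc32a1. The cholinergic enzyme gene Chat, whose locus holds Slc18a3, had 1.43 and 2.92 FPKM in Foxa2-/- cells of day 7.5, against 0.135, 0.437 and 0.486 FPKM at day 3.5 (1.20 ± 0.33, adjusted p = 0.00939).

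Counted over the whole set, 29 of 37 members rose and 0 fell between days 3.5 and 7.5 in Foxa2-/- cells, against 18.7% and 13.4% of all genes. By role these were 5 of 6 cytoskeletal, 2 of 3 neurofilament, 4 of 6 RNA-binding, 10 of 11 vesicle, 2 of 2 sodium channel and 4 of 4 granin genes, with Chat and, of 4 transcription factors, Myt1. The count fell to 5 without Foxa2-/- replicate 2 of day 7.5. In WT cells 11 rose and 3 fell, against 24.5% and 22.4%: 5 vesicle genes, 2 granins, both sodium channels, Map2 and Mapt rose, and Elavl2, Srrm4 and Onecut2 fell. The change differed between genotypes for 5 members, 4 of them (Nefm, Srrm4, Elavl3 and Map2) with the larger value in Foxa2-/- cells and Syt1 with the smaller, against 3.71% of all genes in each direction. Of the 37 differences 35 were positive, a sign not counted over all genes, and their median was 1.29. The 5 calls became 2 whichever library of WT day 3.5 was left out, without WT replicate 3 of day 7.5 or without Foxa2-/- replicate 3 of day 3.5, and 3 without WT replicate 2 of day 7.5, Foxa2-/- replicate 2 of day 3.5 or Foxa2-/- replicate 2 of day 7.5. Without the libraries numbered 1, only 1 Foxa2-/- library of day 7.5 is left, so no result is drawn from that setting.

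The days in between were compared as well. Between days 3.5 and 5.5, 13 members rose in Foxa2-/- cells (7.82% of all genes, with 6.08% falling) and 9 between days 3.5 and 6.5 (6.32%, with 1.67% falling), with Map2, Gap43, Nefm, Nefl, Scg2, Scn3a, Chgb and Vamp2 in both. The 13 became 6, 7 or 5 without replicate 1, 2 or 3 of day 3.5 and 4 without replicate 2 or 3 of day 5.5, and the 9 became 3 without replicate 2 of day 6.5. In WT cells 5 rose by day 5.5 (11%, with 7.53% falling) and 18 by day 6.5 (19%, with 16.8% falling), and the 5 became 16 without replicate 1 of day 5.5 and the 18 became 11 without replicate 3 of day 6.5. Between days 6.5 and 7.5, 0 members rose and 4 fell in WT cells (7.14% and 6.37% of all genes): Elavl2, Srrm4, Nsg1 and Map2, the last by 1.02 ± 0.28 (adjusted p = 0.0273). Only 4 of 37 WT differences over that day were positive, with a median of -0.79. The Foxa2-/- differences were positive for 34 of 37 members, with a median of 0.45, and limma called 0 of them (0.269% of all genes). An unadjusted p under 0.05 was found for 5, a measure not counted over all genes. The median was 0.07 without Foxa2-/- replicate 2 of day 7.5 and 0.87 without replicate 1 of that day.

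Single libraries moved the counts of this last day. The 4 WT calls became 15 without WT replicate 1 of day 6.5, 0 without replicate 2 or 3 of that day, 1 without replicate 1 of day 7.5 and 0 without its replicate 2 or 3. The comparisons with day 6.5 within a genotype were added after the values were seen. The difference between genotypes in the change over the last day was positive for 36 of 37 members, with a median of 1.26. These signs, too, were not counted over all genes. The difference was called for 0 of the members by limma (0.0876% of all genes), and for 7 without WT replicate 1 of day 6.5. An unadjusted p under 0.05 was found for 17, a measure not counted over all genes. Without the libraries numbered 1, only 1 Foxa2-/- library a day is left, so no result is drawn from that setting.

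Other genes of the same systems, from lists of related genes, gave the following at day 7.5, where 13.6% of all genes were called higher and 12.1% lower. Of 17 proneural and Notch-pathway genes 8 were higher in Foxa2-/- cells and 0 lower, the largest differences being 2.45 for the Notch ligand Dll1, 2.13 for Ebf2 and 2.05 for Insm1. In WT cells 14 of these 17 had fallen between days 3.5 and 7.5 and 0 had risen (22.4% and 24.5% of all genes), while in Foxa2-/- cells 4 had risen and 2 had fallen (18.7% and 13.4%). Of 40 further synapse genes 9 were higher, among them the AMPA receptor gene Gria2 (1.34), and 4 were lower, led by the complexin Cplx2 (-2.38). Of 14 further splicing genes 4 were higher, with the microexon regulator Srrm3 at 1.26 and Ptbp2 at 1.22, and 1 lower (Celf2, -0.79). Of 24 further cytoskeletal and growth genes 2 were higher (Dpysl5, 1.35, and Stmn1, 1.17) and 0 lower. From a list of Rest and genes of its repressor complex, Rcor2, a corepressor that binds REST, was higher by 1.00 ± 0.23 (adjusted p = 0.00261). With 13.6% of all genes higher that day, the call of this gene is no result about that list.

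Members were unequally alike in their course over the 10 group means of days 3.5 to 7.5, 5 days in each of 2 lines scaled in the same table, which is given as a description only. The correlation of a member with the mean of the others was 0.97 for Syn1, 0.96 for Gap43 and Dcx and 0.94 for Map2, but 0.53 for Syt1, 0.10 for Srrm4, 0.06 for Elavl2, -0.20 for Onecut2 and -0.63 for Onecut1. Among all other genes those closest to the mean of the members were Scrt1 (0.989), Fry (0.972), L1cam (0.967), Ecel1 (0.966) and Mmp24 (0.965).

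Each group of the Nkx2.2 arm had 1 library, which allows no test. Members stood mostly lower without Nkx2.2 at day 3.5. Of 28 members at 1 FPKM or more in either library, 25 were lower in Nkx2.2-/- cells, with a median difference of -0.55 against -0.02 over all genes. A difference of at least 1 on the log2(FPKM + 1) scale was seen for 5, all lower, against 2.96% of all genes lower and 1.91% higher. Gad1, which makes GABA, was listed at 0 FPKM in Nkx2.2-/- cells and at 1.57 FPKM in WT cells. The vesicle protein gene Syp stood at 2.81 against 8.21 FPKM, Gap43 at 3.68 against 10.1 FPKM, Elavl2 at 2.23 against 6.52 FPKM and Ina at 4.59 against 11.3 FPKM. Nsg1 was among the 3 that were higher, at 18.8 against 10.5 FPKM. At day 5.5, 24 of 31 were lower with a median of -0.21, and Chgb, at 5.77 against 14.1 FPKM, was the only member past 1 (2.97% of all genes lower, 1.67% higher).

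Most members were higher at day 5.5 than at day 3.5 in both lines of that arm. In Nkx2.2-/- cells 15 of 29 members were higher by at least 1 at day 5.5 and 0 lower, against 3.28% and 2.17% of all genes, and in WT cells 12 of 32 were higher and 1 lower, against 4.45% and 2.74%. Nefl and Nefm had large differences. Nefl had 36.6 FPKM at day 5.5 against 3.61 at day 3.5 in Nkx2.2-/- cells, and 37.4 against 7.95 FPKM in WT cells. Nefm had 82.7 against 10.3 FPKM in Nkx2.2-/- cells, and 86.2 against 20.5 FPKM in WT cells. Syt1, low in Foxa2-/- cells of day 5.5 in the other arm, had 10.2 FPKM at day 5.5 against 0.691 at day 3.5 in Nkx2.2-/- cells, and 8.73 against 0.802 FPKM in WT cells. These differences have no replicate check.

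**Figure D5:**
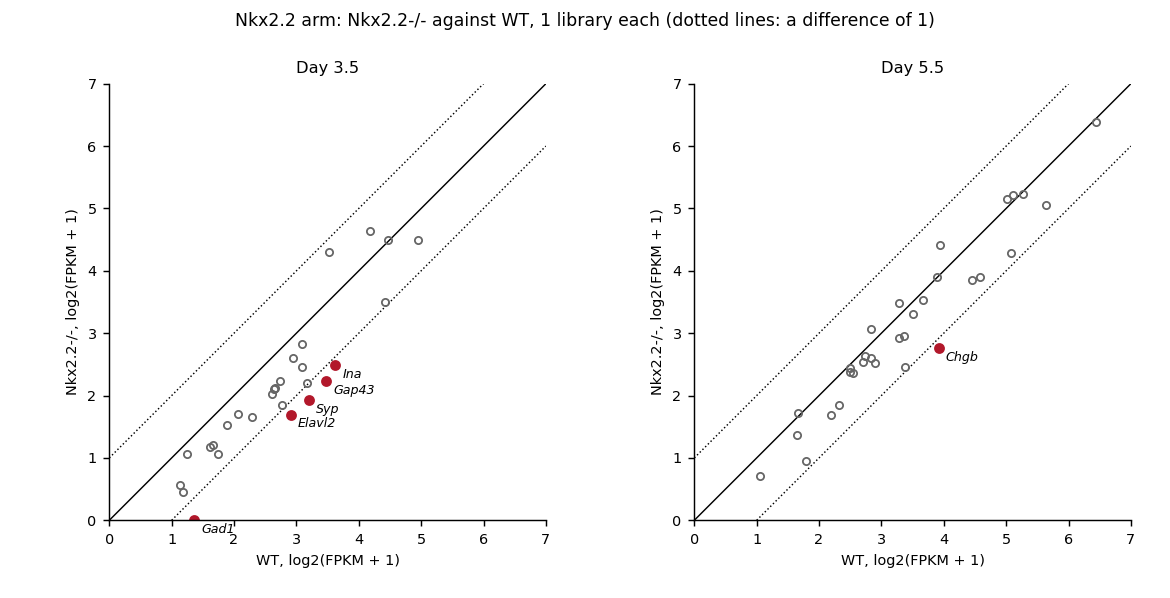
Levels of members in the Nkx2.2 arm at days 3.5 and 5.5, Nkx2.2-/- against WT on log2(FPKM + 1) axes; each point is a gene in 1 library per group, dotted lines mark a difference of 1 and filled points lie past it. At day 3.5 the 5 filled points, among them Syp at 2.81 against 8.21 FPKM, lie on the WT side, and at day 5.5 only Chgb does.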

How the data were processed

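Poly-A selected, stranded RNA sequencing (Illumina TruSeq Stranded mRNA) was deposited as 3 tables of FPKM made by the authors: up to day 2 (15 libraries), days 3.5 to 7.5 (28 libraries) and the Nkx2.2 arm (4 libraries). The submitters' processing notes name TopHat2 2.0.4, Cufflinks 2.1.1, HTSeq 0.6.1, limma, bcl2fastq 1.8.3 and CASAVA with the build GRCm38 (mm10). The annotation is not given in the sources used here. The steps between low FPKM values gave an estimate of depth. FPKM gives no counts, so no counting intervals are given. Values of exactly 0 may be failed estimates. Repeated identifiers (70, 68 and 34 rows) were reduced to 1 row a gene, and 3 columns of no library here were left out. The Nkx2.2-arm libraries titled day 5.5 carry a stage label of day 3.5 and were placed by their titles.

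Each table was fitted on its own with limma 3.58.1 under R 4.3.3 (data handled with data.table version 1.17.8), with figures in Python 3.11.15 (pandas 2.3.3, numpy 2.4.6, matplotlib 3.10.9). A gene was tested where at least 2 libraries reached FPKM 1. The log2(FPKM + 1) values of a table were fitted together, with 1 mean a group, a mean-variance trend and without a replicate block, and two-sided p-values were adjusted (Benjamini-Hochberg) across every gene tested in that fit. On simulated data with 200 changed genes, the day 7.5 comparison recovered 58% of changes of 1 and 90% of changes of 2 on the log2 scale. It ran over 17124 genes. The day 2 comparison, over 16465 genes, recovered 41% and 83%. The changed genes were drawn at random and varied independently, with the same spread in every group. The members moved together between libraries, so these shares do not describe them as a set. Positions come from GENCODE M21 (GRCm38). The members and gene lists were chosen with earlier results of these data known. Members given with each library's value are, in each role, the up to 4 with the largest called change, and further called members at the comparison where they are described. Comparisons of day 6.5 with days 3.5 and 7.5 within a genotype, the interaction from day 6.5 to day 7.5 and the omission of libraries numbered 1 were added after the values were seen. Alternatives were pseudocount 0.1, no filter, median-of-ratios and quantile scaling, zeros as missing, a length trend removed, a replicate block, fitting only the groups compared, leaving out each library, and leaving out libraries that stood apart.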

Additional observations from a re-analysis of the deposited data

Results flagged for a closer look

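For 7 gene results the change over time differed between Foxa2-/- and WT cells by the interaction test itself (limma, adjusted p under 0.05). From the undifferentiated state to day 2 these were Stmn2 (1.30) and Nefm (0.94), both with the larger value in Foxa2-/- cells. From day 3.5 to day 7.5 they were Nefm (2.71), Srrm4 (2.48), Elavl3 (2.37) and Map2 (2.04), again with the larger value in Foxa2-/- cells, and Syt1 (-2.28), with the smaller. Map2 and Srrm4 were called in each of 20 alternatives, Elavl3 in 12 of 20, Nefm of days 3.5 to 7.5 in 10 of 20 and Syt1 in 9 of 20. The changes to day 2 were called in 17 of 19 alternatives for Stmn2 and in 8 of 19 for Nefm. Since the line differs with the genotype, the 2 cannot be told apart in any of them. No group held 4 libraries, so single libraries were not checked as outliers within a group.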

How the results depend on the processing

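Counts of called members moved by over 1.5 times in the following settings, always with the counts of the report as the base, and no result changed direction; the causes were not tested beyond what a setting itself fixes (fewer libraries or more genes). Comparing Foxa2-/- with WT cells, a pseudocount of 0.1 gave 4 at day 2. Without the filter on low values there was 1 in undifferentiated cells and there were 2 at day 5.5. Median-of-ratios scaling gave 2 at day 1 and 1 at day 3.5, and quantile normalization 1 and 0. A fit of only the groups compared, with fewer libraries to estimate the spread, gave 1 at day 1, 0 at day 2, 5 at day 3.5, 1 at day 5.5, 1 at day 6.5 and 2 at day 7.5. Without Foxa2-/- replicates 1 and 3 of day 2 there were 2 calls at day 2. Within Foxa2-/- cells, no filter gave 8 and quantile normalization 7 for day 5.5 against day 3.5, only the groups gave 3 for day 6.5 and 9 for day 7.5 against day 3.5, and no filter gave 1 for day 7.5 against day 6.5. For WT day 7.5 against day 6.5 the count was 2 with no filter, 7 with median-of-ratios, 9 with quantile normalization and 0 with only the groups. For the difference between genotypes in the change to day 2 it was 1 with pseudocount 0.1, 4 with no filter, 4 where isolated zeros were taken as missing, 0 with only the groups and 1 without those day 2 libraries. For the change from day 3.5 to day 7.5 it was 11 with only the groups, and from day 6.5 to day 7.5 it was 1 with no filter. In the Nkx2.2 arm a pseudocount of 0.1 put 10 members past 1 at day 3.5 and 3 at day 5.5. The counts that follow leave out the libraries numbered 1, which were picked because most stood lowest for these members. Those that involve Foxa2-/- cells of day 6.5 or 7.5, both interactions included, rest on 1 Foxa2-/- library a day. They are listed only to describe the setting, and no result is drawn from them.

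Without the libraries numbered 1 of days 4.5 to 7.5, Foxa2-/- against WT gave 16, 3, 19, 16 and 21 calls from day 3.5 to day 7.5 (9.36%, 7.88%, 16.9%, 32.5% and 20.5% of all genes). Against day 3.5, Foxa2-/- cells gave 28 at day 5.5 (27.6% of all genes) and 29 at day 6.5 (24.8%), and WT cells 28 (22.5%) and 31 (41.9%). Day 7.5 against day 6.5 gave 4 in Foxa2-/- (4.45%) and 25 in WT cells (25.5%), and each of the interactions from day 3.5 (12.7%) and from day 6.5 (7.44%) to day 7.5 gave 25.

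Same-numbered libraries did not deviate together in every pair (correlations over all genes of -0.243 to 0.36), so the numbers were not taken to pair the libraries. For most members, however, number 1 was the lowest library of both genotypes on days 4.5 to 6.5. It was so for 29, 34 and 32 of 37 members in Foxa2-/- cells (29.8%, 36.4% and 52.3% of all genes). In WT cells it was so for 28, 37 and 37 (34.1%, 39.1% and 33.0%). With a replicate block there were 2 calls at day 1, 7 at day 5.5 and 11 at day 7.5 between genotypes, 18 for Foxa2-/- day 6.5 and 8 for WT day 5.5 against day 3.5, 10 for WT day 7.5 against day 6.5, 13 for the interaction from day 3.5 to day 7.5 and 1 for that to day 2.

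Leaving out each library in turn gave, for Foxa2-/- against WT, 0 to 0 calls in undifferentiated cells, 1 to 3 at day 1, 4 to 12 at day 2, 0 to 1 at days 3.5 and 4.5, 2 to 14 at day 5.5, 3 to 13 at day 6.5 and 4 to 6 at day 7.5. Day 2 against the undifferentiated state gave 17 to 20 in Foxa2-/- and 13 to 15 in WT cells. Against day 3.5, Foxa2-/- cells gave 4 to 13 at day 5.5, 3 to 11 at day 6.5 and 5 to 32 at day 7.5, and WT cells 5 to 16, 11 to 24 and 10 to 13. Day 7.5 against day 6.5 gave 0 to 3 in Foxa2-/- and 0 to 15 in WT cells. The interactions gave 0 to 9 to day 2, 2 to 4 from day 3.5 to day 7.5 and 0 to 7 from day 6.5. Of 169 results for single genes, 66 were called in every alternative. With 2 or 3 libraries a group and no counts, a member that was not called is not shown to be equal.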
